A study of Mus musculus with 36 samples.

Results

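Primary hepatocytes (PH) isolated from mice without hepatocyte Nampt and kept in culture for 24 h were compared with liver tissue (L) of the same animals. The members were all libraries labelled HNKO, for hepatocyte-specific Nampt knockout, in these 2 states: 6 PH and 6 L libraries from mice 540, 542, 546, 552, 562 and 566, which is 12 of the 36 libraries of the series. The HNKO mice carried a conditional Nampt allele and an Alb-Cre transgene, which drives deletion from the albumin promoter and so in hepatocytes. Their WT littermates carried the conditional allele without Cre. All were females on a C57BL6 background, 10 to 12 weeks old at the start of 3 to 5 weeks on a purified diet made with free amino acids. The liver piece was taken from the median lobe after blood had been flushed out and before collagenase entered, and the other lobes were dissociated, giving a cell suspension (CS) and, from it, the cultured cells. Cells attached to collagen-coated plastic, stayed in culture for 24 h and were lifted with trypsin-EDTA. Lobe, dissociation, culture and trypsin therefore differed together between PH and L and cannot be told apart. A culture change below names this whole difference.

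Hepatocytes carry out most of the metabolic work of the liver: they make plasma proteins and bile acids, release glucose, turn ammonia into urea and detoxify drugs, under the control of a small set of transcription factors. When they are taken out of the tissue and plated, they are known to lose much of this program while taking up features of injured, spreading epithelium. Nampt makes nicotinamide mononucleotide, the precursor of NAD, from nicotinamide, and NAD is both an electron carrier and the substrate of sirtuins and PARPs.

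Transcripts were measured by total RNA sequencing after removal of ribosomal RNA, and values are given as CPM, counts relative to the library's total after scaling by TMM, a method that sets the middle of the genes equal between libraries. Total counts were 9688267 to 18165949 per library in HNKO liver and 9614358 to 19689114 in HNKO PH. Fold changes are PH over L on the log2 scale with their standard error (SE), and adjusted p-values come from edgeR's quasi-likelihood test with Benjamini-Hochberg adjustment over 14932 genes, with 0.05 as the threshold for calling a gene. With library size alone in place of TMM, the median log2 fold change of all genes was 0.46 in place of 0.01, so changes smaller than this shift depend on the scaling. The liver of mouse 552 stood apart from the other HNKO livers: the mean log2 CPM of 34 cell cycle genes was 3.70 there and 1.88 to 2.28 in the other 5, Nlrp6 was 81.4 CPM against 152 to 190, and Ptprc was 37.9 CPM against 16.8 to 20.9. The suspension of mouse 552 was also the highest HNKO suspension for the cell cycle genes, at 4.30. Its liver library had the fewest counts of the HNKO livers (9688267) and the lowest rank correlation with its own type among the libraries used (0.9414). Some values are therefore also given without this mouse. Genes named as the exceptions of a list were chosen after their values were seen, unlike the genes that the naming rule picked.

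Nampt itself was found in all 12 libraries, at chromosome 12, positions 32819545 to 32853349 on the plus strand of GRCm38. It was 31.3 CPM at the lowest, 40.8 at the median and 52.1 at the highest in HNKO liver, and 69.1, 81.7 and 87.3 CPM in HNKO PH. The groups did not overlap, and PH was higher in each of the 6 mice. The log2 fold change was 0.96 (SE 0.20, adjusted p = 7.6e-05), and an exact two-sided permutation test gave p = 0.00216, the smallest that 6 against 6 can give. That test treats the 12 libraries as unpaired, and with signs flipped within the 6 mice the exact permutation p was 0.0312, the smallest that 6 pairs can give. HNKO liver held less Nampt than WT liver (exact permutation p = 0.00433, mean difference in log2 CPM -0.96), and HNKO PH less than WT PH (p = 0.00216 by the same exact test, difference -1.34). Nampt rose in WT culture as well (log2 fold change 1.31), and the test of the difference between genotypes gave an adjusted p = 0.56. Counts were summed over the whole gene, so transcripts of the intact and of the deleted allele cannot be told apart here. Liver cells without Cre keep the gene, and their part in these values was not tested.

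**Figure D1:**
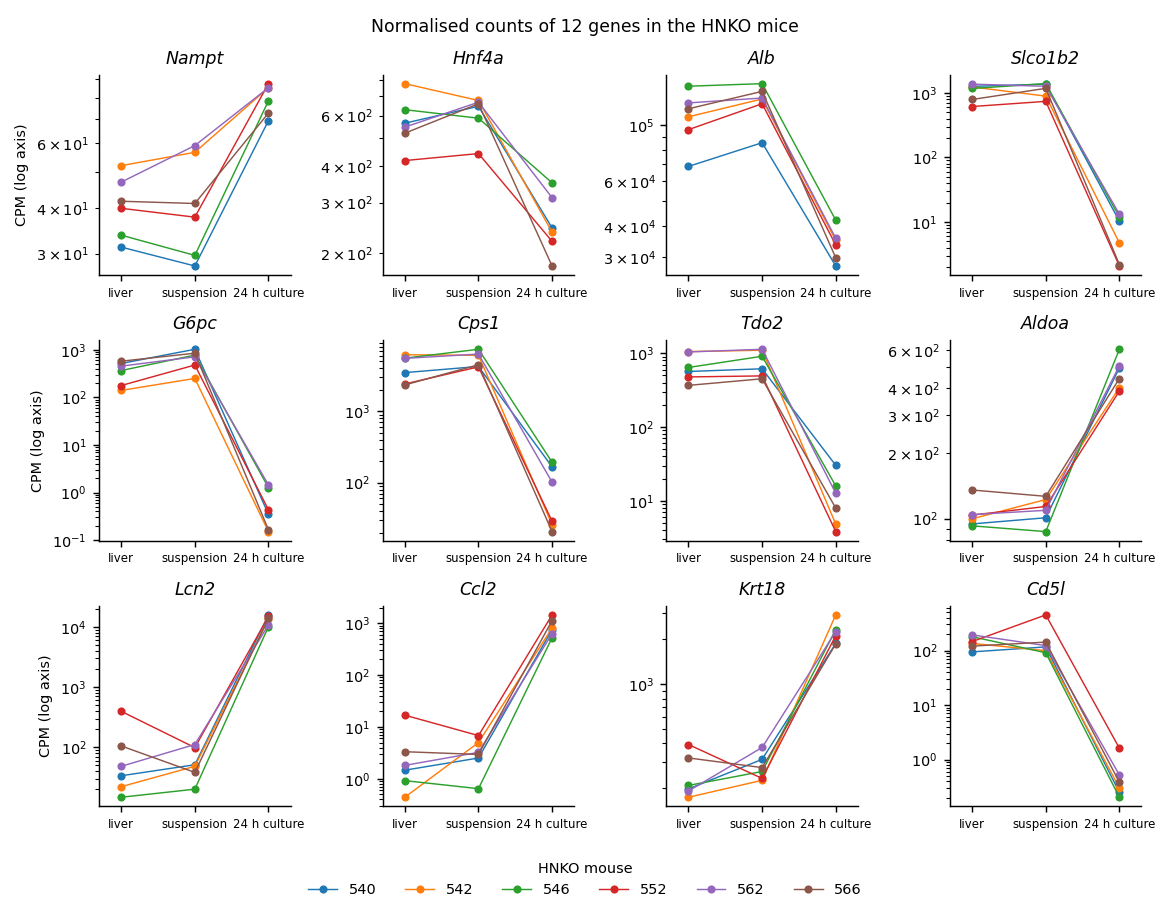
Normalised counts (CPM, log axis) of 12 genes in liver, cell suspension and 24 h culture, 1 point per library with a line joining the libraries of each HNKO mouse. Nampt, Aldoa, Lcn2, Ccl2 and Krt18 were higher in all 6 cultures than in all 6 livers, and the other 7 genes were lower.

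Most of the measured transcriptome differed between PH and L. Of 14932 genes tested, 11374 (76.2%) were called, 5623 (37.7%) higher and 5751 (38.5%) lower in PH. Changes of 2-fold or more were called in 2653 genes (17.8%) upward and 3969 (26.6%) downward, and 4-fold changes in 929 (6.22%) upward and 2379 (15.9%) downward. All PH libraries lay above all L libraries for 3949 genes (26.4%) and below them for 4098 (27.4%). Of the called genes 49.4% were higher, and with library size alone this share was 65.2%. Without mouse 552, 11200 genes were called. In the suspension, before culture, 802 genes (5.37%) differed from HNKO liver.

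Among the 15 largest rises were the secreted signals Csf3, Cxcl2, Cxcl3, Cxcl5 and Ccl2. Csf3, the granulocyte growth factor G-CSF, had no count in any HNKO liver and 2.37 to 64.9 CPM in PH, with a median of 13.7, which is at least 724-fold higher with 3 counts over the group as the floor. Cxcl3, a ligand of the neutrophil receptor Cxcr2, had 3 counts in the 6 livers together and 13685 in the 6 cultures, a ratio of 3540 with a 95% counting interval of 1210 to 17200. That interval takes reads and not mice as its unit, so it leaves out the spread between mice (16.0 to 362 CPM in PH). The fold of the fitted model was 2493. The other Cxcr2 ligands among these genes, Cxcl2 and Cxcl5, had medians of 0.0783 and 0.274 CPM in L and 117 and 44.2 CPM in PH. No library of one state reached the range of the other for any of these 4 genes. PH libraries differed widely among themselves, and mouse 552 had the highest Csf3, Cxcl3, Cxcl2 and Cxcl5. Without that mouse the log2 fold change of Cxcl5 was 7.44 in place of 8.29 and that of Csf3 10.7 in place of 11.4. Without mouse 540 that of Cxcl2 was 10.6 in place of 9.92.

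Ccl2, which attracts monocytes, was 0.441 to 16.9 CPM in L (median 1.64) and 525 to 1445 CPM in PH (median 780), a log2 change of 7.81 (SE 0.71, adjusted p = 8.8e-12) that was 8.88 without mouse 552. Saa3, an acute phase apolipoprotein, went from a median of 2.89 CPM to 2165 CPM. Nos2, the inducible nitric oxide synthase, had medians of 0.126 and 26.4 CPM. Hmga2, a chromatin protein of embryonic tissues, had medians of 0.0769 and 39.6 CPM. Fosl1, a subunit of the AP-1 transcription factor, went from 0.113 to 38.6 CPM at the median (log2 fold change 8.15, SE 0.47, adjusted p = 1.1e-16). Gsta1, a glutathione transferase, and Mmp24, a membrane-bound matrix metalloproteinase, rose as well, by log2 fold changes of 7.59 and 7.57, or 8.76 and 8.23 without mouse 552. The remaining genes of this group were Gml, Gml2 and Psg22, of the Ly6-like and pregnancy-specific glycoprotein families, all under 0.2 CPM in each liver and 13.0 to 53.8 CPM in culture. Their folds rest on 1, 4 and 2 counts in the 6 livers together, and their counts may be shared with near-identical family members.

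Among the 15 largest falls were Cyp7a1, Cyp8b1, G6pc, Pck1, Nr1i3 and Akr1c6. Cyp7a1, the rate-limiting enzyme of bile acid synthesis, was 14.2 to 134 CPM in liver (median 62.8) and 0 to 0.231 CPM in culture, where the 6 libraries together held 7 counts. Its log2 fold change was -10.03 (SE 0.80, adjusted p = 4.8e-13), or -10.9 without mouse 562. Cyp8b1, which sets the share of cholic acid, fell from a median of 212 CPM to 0.225 CPM. G6pc, the last step of glucose release, was 140 to 578 CPM in L (median 411) and 0.151 to 1.45 CPM in PH (median 0.391), a log2 change of -9.16 (SE 0.82, adjusted p = 7.6e-12). Pck1, which commits carbon to gluconeogenesis, fell from a median of 1287 CPM to 3.60 CPM. Nr1i3, the xenobiotic receptor CAR, went from 286 to 1.29 CPM and Akr1c6, a hydroxysteroid dehydrogenase, from 1027 to 3.26 CPM. For each of these 6 genes every cultured library was below every liver.

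Further large falls were in Acot3, a peroxisomal acyl-CoA thioesterase (median 126 CPM in L and 0.266 CPM in PH), Nlrp6, a sensor of the inflammasome family (181 and 0.363 CPM), Sucnr1, the succinate receptor (32.2 and 0.130 CPM), Cux2, a transcription factor of female liver (32.7 and 0.0770 CPM), and Nxpe2 (44.9 and 0.109 CPM). Csrp3, a LIM protein best known from muscle, had medians of 24.7 and 0.0447 CPM. Clec4g, a lectin of sinusoidal endothelium, had medians of 51.5 and 0.193 CPM. Hbb-bs and Hba-a1, globin chains of red cells, had medians of 51.1 and 9.93 CPM in liver and 0.0762 and 0 CPM in culture. Globins were already low in the suspension, where Hbb-bs had a median of 0.367 CPM. Without mouse 542 or 566 the log2 fold change of Hbb-bs was -10.1 or -8.59 in place of -9.49, without mouse 546 that of Csrp3 was -9.32 in place of -8.17, and without mouse 552 that of Acot3 was -9.12 in place of -8.52.

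Transcription factors that specify hepatocytes fell unequally. Of 31 tested, 24 were called lower and 3 higher, with a median log2 fold change of -1.39 beside 0.01 over all tested genes. Hnf4a, the nuclear receptor that sustains the hepatocyte program, was 419 to 774 CPM in L (median 556) and 181 to 351 CPM in PH (median 241), a log2 change of -1.16 (SE 0.16, adjusted p = 8.3e-08). Rxra, the shared partner of many nuclear receptors, fell from 460 to 105 CPM at the median, Cebpa from 282 to 30.8 CPM, and Esr1, the estrogen receptor, from 43.4 to 2.48 CPM. None of these 4 genes overlapped between the groups. Foxa2, a pioneer factor of liver, was not called, with a log2 fold change of 0.14. The 3 that rose were Cebpd, from a mean of 1.74 to 43.8 CPM, Cebpb, from 11.8 to 28.5 CPM, and Nfil3, from 16.0 to 35.7 CPM; the first 2 are C/EBP factors of the acute phase. Esrra and Bhlha15 were not called either.

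Most plasma protein genes fell. Of 58 tested, 51 were called lower and 3 higher, with a median log2 fold change of -2.07. Alb, albumin, was 68780 to 143000 CPM in liver (median 112300) and 27730 to 42110 CPM in culture (median 34320), so it remained abundant. It fell by 1.68 on the log2 scale (SE 0.18, adjusted p = 6.5e-10), without overlap. The coagulation factors F5 and F9 fell from medians of 924 and 255 CPM to 118 and 51.4 CPM. C3, the central complement protein, overlapped between the groups, at 9836 to 13920 CPM in L and 7405 to 11310 CPM in PH, and its change of -0.50 was called with TMM and not with library size alone (-0.05, adjusted p = 0.74). The 3 genes called higher were Hpx, Cp and Cfb, which encode hemopexin, ceruloplasmin and complement factor B, with log2 fold changes of 1.00, 1.36 and 1.26. Serpina1e, Pros1, C4b and Mbl2 were not called.

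Drug-metabolising genes lost most of their transcripts. Of 40 cytochrome P450 and related genes tested, 34 fell and 2 rose, with a median log2 fold change of -3.71. Cyp2e1, which oxidises ethanol, was 2036 to 9256 CPM in L and 87.7 to 501 CPM in PH, Cyp3a11 was 1277 to 2476 CPM and 48.3 to 206 CPM, and Cyp2j5 and Cyp2b9 had medians of 603 and 493 CPM against 19.9 and 18.1 CPM. Each of these genes was separated completely. Cyp2b10, a target of CAR, was called higher, from a mean of 1.61 CPM to 22.7 CPM (log2 fold change 3.86), while Nr1i3, which encodes CAR, was among the largest falls. Cyp1b1 was the other gene called higher, at 1.31 and 3.81 CPM. Of 44 conjugating enzymes tested, 38 fell, among them Gstm1 (median 930 and 231 CPM), Gsta3 (979 and 91.3 CPM), Gstz1 (720 and 30.0 CPM) and Sult1b1 (21.3 and 1.25 CPM). The 3 that rose were the glutathione transferases Gsta1, Gstp1 and Gstp2, with log2 fold changes of 7.59, 1.72 and 4.82. Gstp1 and Gstp2 are near-identical neighbours, so their reads may be shared.

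Genes of bile acid synthesis and uptake fell, while 4 efflux pumps rose. Of 31 genes tested, 25 fell and 4 rose, with a median of -3.14. Slco1b2, an uptake carrier of the sinusoidal membrane, was 616 to 1370 CPM in L (median 1207) and 2.09 to 13.2 CPM in PH (median 7.52), a log2 change of -7.18 (SE 0.43, adjusted p = 2.8e-16). Slc27a2, which activates bile acids and long-chain fatty acids, fell from a median of 1158 to 30.6 CPM, Abcb11, the canalicular bile salt export pump, from 800 to 21.0 CPM, and Amacr, a racemase of side-chain shortening, from 129 to 5.45 CPM. Among the pumps, Abcb1b rose from a mean of 1.31 to 58.9 CPM, Abcc4 from 3.98 to 24.9 CPM, Abcc3 from 228 to 479 CPM and Abcb1a from 17.4 to 31.5 CPM. Abcg2 and Acox2 were not called.

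Most genes of amino acid breakdown and glucose release fell. Of 55 genes of the urea cycle and amino acid breakdown, 51 fell and only Sdsl rose, with a median log2 fold change of -3.76. Cps1, the entry enzyme of the urea cycle, was 2341 to 6192 CPM in L (median 4497) and 20.6 to 193 CPM in PH (median 65.1), a log2 change of -5.57 (SE 0.68, adjusted p = 7.1e-09). The 6 cultures fell into a higher range for mice 540, 546 and 562 and a lower one for mice 542, 552 and 566, as the plot of 12 genes shows. Mat1a, which makes S-adenosylmethionine, had medians of 3336 and 47.4 CPM. Of 18 genes of gluconeogenesis and glycogen, 16 fell, among them Fbp1 (1234 and 44.7 CPM at the median), the glucose carrier Slc2a2 (528 and 4.79 CPM) and the glucagon receptor Gcgr (133 to 287 CPM in L, and 9.11 CPM at the median in PH). The 2 that rose were Pck2, the mitochondrial isoform of the enzyme that Pck1 encodes (log2 fold change 1.31), and Foxo1, a transcription factor (0.36). The change of Foxo1 is smaller than the shift between scalings, and 2 genes of the list were called higher under 8 of 17 other settings and 1 under the rest.

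Glycolysis changed by isoform. Of 7 liver-type genes, 6 fell and Pfkl, a phosphofructokinase, rose, with medians of 41.3 CPM in L and 225 CPM in PH. Aldoa, the widely expressed aldolase, was 92.6 to 136 CPM in L (median 102) and 389 to 607 CPM in PH (median 471). Every culture was above every liver, and the log2 fold change was 2.18 (SE 0.13, adjusted p = 5.8e-16). The liver genes Gckr and Pklr had medians of 342 and 743 CPM in L and 52.0 and 286 CPM in PH, with overlap for Pklr. Of 16 isoforms and carriers typical of other tissues, 10 rose and 4 fell, with a median of 1.42. Slc2a1, the common glucose carrier, rose from a median of 8.74 CPM to 130 CPM, Ldha from 652 to 1630 CPM and Eno1 from 298 to 932 CPM. The 4 that fell were Hk3, Pfkm, Aldoc and Slc2a3. Of the 6 enzymes that all tissues share, Gapdh, Tpi1, Pgk1, Pgam1 and Gpi1 rose by log2 fold changes of 0.60 to 2.06 and Bpgm fell by 0.81.

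**Figure D2:**
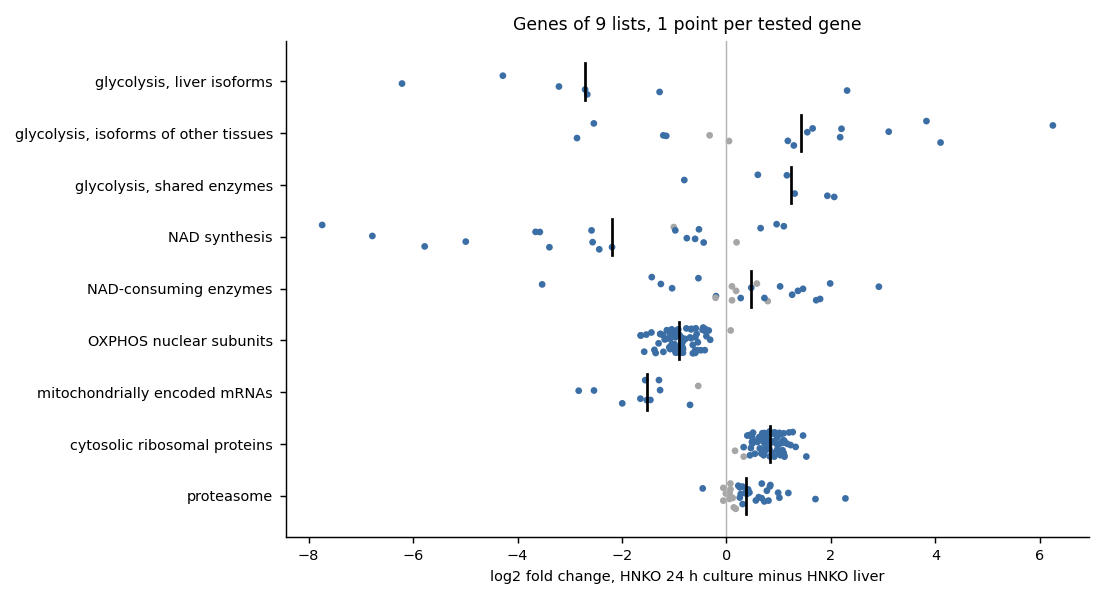
Log2 fold change of HNKO culture over HNKO liver for each tested gene of 9 lists, with the median of each list as a black bar, called genes in blue and genes not called in grey. Liver and other-tissue isoforms of glycolysis lie on opposite sides of 0 at their medians (-2.71 and 1.42), and the ribosomal and respiratory chain genes have medians of 0.82 and -0.90.

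Genes of fat breakdown and of fat synthesis both fell. Of 45 genes of fatty acid oxidation and PPAR-alpha targets, 39 fell and 2 rose (Angptl4 and Cidea), with a median of -2.48. Fabp1, the fatty acid binding protein of liver, was 2931 to 6966 CPM in L and 32.0 to 89.8 CPM in PH. Bdh1, which converts acetoacetate, had medians of 447 and 5.09 CPM. Of 19 lipogenic genes 17 fell, with a median of -3.36. Scd1, a desaturase, was 9190 to 18700 CPM in 5 livers and 1440 CPM in that of mouse 540, and 203 to 993 CPM in the cultures. Fasn, the fatty acid synthase, had medians of 1725 and 126 CPM, and Elovl5 and Fads2, of polyunsaturated fatty acid synthesis, 1176 and 854 CPM against 66.8 and 36.1 CPM. Of 24 cholesterol synthesis genes 22 fell, with a median of -2.28, among them Sc5d, Ebp and Stard4 by log2 fold changes of -3.49, -2.97 and -3.79, while Srebf2, their transcription factor, rose by 0.59.

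Genes of both ends of the liver lobule fell. Of 24 genes that mark hepatocytes around the central vein, 21 were called lower and none higher, with a median of -3.54. Glul, glutamine synthetase, was 925 to 2325 CPM in L and 69.0 to 119 CPM in PH, and Rgn, regucalcin, had medians of 1562 and 32.1 CPM. Of 20 genes that mark hepatocytes around the portal vein, 16 fell, with a median of -3.66, among them Gls2, a glutaminase, from 324 to 21.1 CPM at the median and Aldh1b1 from 108 to 6.09 CPM. Sox9, which also marks bile duct cells, was the only one called higher, from a mean of 5.22 CPM to 44.7 CPM. In the suspension Glul had a median of 948 CPM, against 1831 CPM in liver and 82.3 CPM in culture.

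Most subunits of the respiratory chain and ATP synthase fell. Of 75 encoded in the nucleus, 74 were called lower and none higher, with a median log2 fold change of -0.90 and a range from -1.64 to 0.08, and with library size alone 56 were lower and 1 higher. Atp5b, Atp5a1, Sdha and Ndufb11 had medians of 1186, 1071, 574 and 81.8 CPM in L and 619, 516, 209 and 26.5 CPM in PH, without overlap. Of 11 mRNAs encoded in mitochondria, 10 fell, with a median of -1.53 and a wide range between genes. The mitochondrial mt-Cytb was 9162 to 14000 CPM in L and 1536 to 2093 CPM in PH, a log2 change of -2.54 (SE 0.27, adjusted p = 2.9e-10). The subunit mt-Co1 was 16170 to 23140 CPM and 10300 to 13850 CPM, a change of -0.70 (SE 0.20, adjusted p = 0.0021) that was not called with library size alone (-0.24, adjusted p = 0.23) or with edgeR's newer dispersion setting (adjusted p = 0.053). The mitochondrial mRNAs mt-Nd2 and mt-Nd4 lay between them, at -1.65 and -1.53. For mt-Atp6, mt-Co2 and mt-Co3 the means were under 1 CPM in both states, so their changes rest on few counts, and nuclear copies of mitochondrial genes can take reads from all of them.

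The genes that make NAD from tryptophan were among the most reduced. Of 21 NAD synthesis genes tested, 16 fell and 3 rose, with a median of -2.19. Tdo2, which opens the tryptophan ring, was 367 to 1053 CPM in L (median 604) and 3.82 to 30.2 CPM in PH (median 10.3), a log2 change of -5.78 (SE 0.52, adjusted p = 8.3e-12). Kmo fell from a median of 257 to 8.77 CPM and Haao, 2 steps later in the same route, from 476 to 2.78 CPM. Qprt, the step into the common pathway, and Naprt, which starts from nicotinic acid, fell by 2.56 and 2.58 on the log2 scale, and Nmrk1, which starts from nicotinamide riboside, by 2.19. The 3 that rose were Nampt, Pnp and Nadk, with log2 fold changes of 0.96, 1.10 and 0.65. For Nampt the counts do not tell the intact from the deleted allele. Nadk, the cytosolic NAD kinase, was 186 to 282 CPM in L and 296 to 534 CPM in PH, without overlap.

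NAD-consuming enzymes had no common direction. Of 23 tested, 11 rose and 6 fell, beside 37.7% and 38.5% of all tested genes, with a median of 0.47, and with library size alone 17 rose and 3 fell. Sirt3, a mitochondrial deacylase, was 45.3 to 113 CPM in L (median 78.8) and 5.11 to 8.33 CPM in PH (median 7.31), a log2 change of -3.53 (SE 0.16, adjusted p = 2.4e-19), and the mitochondrial Sirt5 and Sirt4 fell by 1.43 and 1.04. Parp14 was 48.8 to 81.1 CPM in L and 426 to 544 CPM in PH (log2 fold change 2.92, SE 0.14, adjusted p = 1.9e-18). Parp9 and Parp3 rose from medians of 75.7 and 45.3 CPM to 199 and 177 CPM, without overlap. Parp1, the main PARP of DNA repair, changed by -0.20, less than the shift between scalings, and Sirt1 was not called (0.11, adjusted p = 0.4).

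Immediate-early and stress-response genes rose. Of 28 genes of AP-1 and other early factors, 23 were called higher and 3 lower (Klf2, Klf10 and Zfp36), with a median log2 fold change of 2.78. Klf6, a zinc-finger factor, was 15.9 to 72.1 CPM in L and 401 to 645 CPM in PH, and Fosl2, of AP-1, had medians of 10.2 and 71.5 CPM. Egr1 had medians of 28.1 CPM in liver, 786 CPM in the suspension and 233 CPM in culture. Of the same 28 genes, 18 already differed between suspension and liver, where the median change was 1.77. Of 29 genes of the integrated stress response, the translational control pathway through Atf4, 24 rose and 2 fell (Atf5 and Shmt2), with a median of 1.73 in culture and -0.06 in the suspension. Eif4ebp1, which restrains translation, rose from a median of 34.5 to 189 CPM, Slc3a2, an amino acid carrier subunit, from 39.2 to 212 CPM and Nars, a tRNA synthetase, from 140 to 328 CPM.

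Of 23 targets of Nrf2, the oxidative stress factor, 17 rose and 2 fell, with a median of 1.20. Gsr, glutathione reductase, was 42.0 to 59.8 CPM in L and 305 to 498 CPM in PH, Txnrd1 had medians of 130 and 400 CPM and Fth1, ferritin heavy chain, 1194 and 5896 CPM. Its partner Ftl1 overlapped (1224 to 1943 and 1081 to 1582 CPM) and was not called (-0.32, adjusted p = 0.054), though called lower under 8 of 17 other settings, among them the mouse as a block (-0.30). The 2 that fell were Gclm and Gstm1 (4 fell with the block), and Nqo1, a widely used marker of the pathway, was not called (-0.34, adjusted p = 0.08). Of 20 genes of the p53 response, 17 rose and Sesn1 fell (2 fell with the block), with a median of 1.94. Zmat3 rose from a median of 8.58 to 68.9 CPM, Aen from 12.6 to 80.6 CPM and Trp53inp1 from 79.6 to 355 CPM. Chaperones had no common direction: 11 of 32 rose and 9 fell, beside 37.7% and 38.5% of all tested genes. Their median was 0.11, and with library size alone 20 rose and 4 fell. Among them Hspb1 rose from 6.55 to 117 CPM at the median and Hsp90aa1 from 86.3 to 377 CPM.

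Acute phase genes rose in most cases. Of 23 tested, 16 rose and 4 fell (Hamp, Crp, Serpina10 and Itih4), with a median of 1.96. Lcn2, lipocalin 2, was 14.8 to 395 CPM in L (median 41.0) and 10040 to 15740 CPM in PH (median 13560), a log2 change of 6.99 (SE 0.68, adjusted p = 5.8e-11) that was 8.12 without mouse 552, the liver with the highest value. Hp, haptoglobin, rose from a median of 2608 to 7204 CPM. The metallothioneins Mt1 and Mt2 rose from 50.8 and 23.1 CPM to 736 and 935 CPM, and had medians of 258 and 157 CPM in the suspension. Of 35 chemokines, cytokines and receptors, 22 rose and 8 fell, with a median of 1.76. Cxcl1 was 5.08 to 15.4 CPM in L and 269 to 714 CPM in PH, Icam1 had medians of 25.9 and 195 CPM and Cxcl16 15.7 and 156 CPM. The mean log2 CPM of this list was 1.47 to 2.57 in L and 3.07 to 4.90 in PH, with mouse 552 highest in both states. In PH, mouse 552 was also highest in the mean log2 CPM of the markers of Kupffer cells, sinusoidal endothelium and stellate cells and lowest in those of hepatocytes. By summed CPM, mouse 552 was highest for stellate cell markers only. Mouse 540 was then highest for Kupffer cell and lowest for hepatocyte markers, and mouse 542 highest for endothelial markers. The part of these cells in the chemokine values was not tested.

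**Figure D3:**
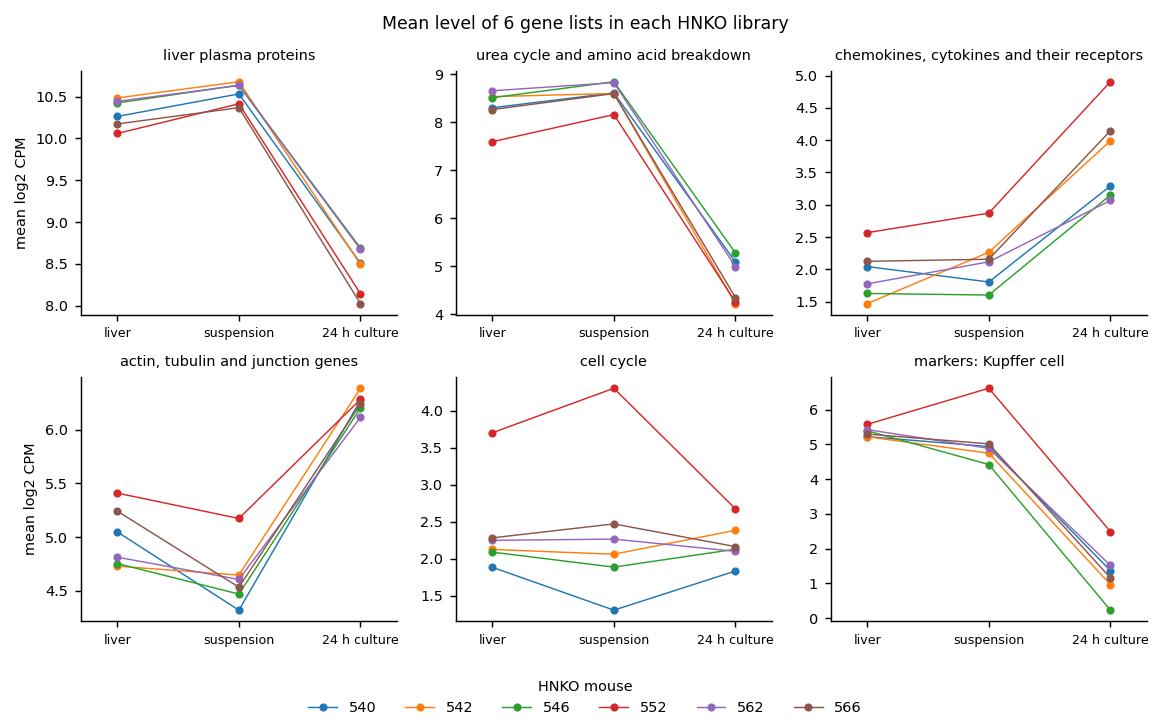
Mean log2 CPM of 6 gene lists in liver, cell suspension and 24 h culture, 1 line per HNKO mouse. Plasma protein and urea cycle genes were lower and chemokine and cytoskeletal genes higher in culture than in suspension in all 6 mice, and mouse 552 lies above the others for cell cycle genes in liver (3.70 against 1.88 to 2.28).

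Cytoskeletal genes rose while collagens fell. Of 64 genes of actin, tubulin, keratin and cell junctions, 45 rose and 14 fell, with a median of 1.82. Actb was 420 to 626 CPM in L and 1828 to 2711 CPM in PH, Krt18, a keratin of simple epithelium, 175 to 394 and 1856 to 2902 CPM, and Cfl1, which cuts actin filaments, 146 to 187 and 684 to 898 CPM. The log2 fold change of Cfl1 was 2.20 (SE 0.08, adjusted p = 4.8e-21), and Pfn1, profilin, rose by 1.81. Of 44 integrins, laminins and matrix enzymes, 21 rose and 15 fell, beside 37.7% and 38.5% of all tested genes, with a median of 0.67. Tgm2, a transglutaminase, rose from a median of 285 to 1307 CPM and the integrin Itgav from 27.5 to 172 CPM, whereas Fn1, fibronectin, fell from 2809 to 1153 CPM. Of 23 collagen chains 16 fell and 2 rose, with a median of -1.98. Col18a1, a collagen that hepatocytes make, had medians of 1234 and 291 CPM and Col14a1, of fibroblasts, 116 and 10.0 CPM. Col4a1 was called higher (0.90, adjusted p = 0.0032) with overlapping groups, and its highest culture was that of mouse 552, at 261 CPM against 123 to 146 CPM. Col12a1 was the other chain that rose, from a mean of 4.89 to 41.8 CPM.

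Genes of protein synthesis and breakdown moved upward by small amounts. Of 78 genes of the cytosolic ribosome, 76 rose and none fell, with a median of 0.82, and under the 3 other scalings 74 to 78 rose. Rplp0 was 254 to 340 CPM in L and 604 to 694 CPM in PH, and Rpl12 and Rpl13a had medians of 122 and 14.8 CPM against 343 and 43.5 CPM. Many ribosomal protein genes have processed copies in the genome, which can take part of their reads. Of 37 proteasome genes 26 rose and Psmb1 fell, with a median of 0.38, which is smaller than the shift between scalings. Psmd8, of the regulatory particle, rose from a median of 108 to 584 CPM and Psmb8, of the immunoproteasome, from 35.6 to 115 CPM.

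Cell cycle, clock and hormone-response genes were mixed, beside 37.7% of all tested genes that rose and 38.5% that fell. Of 34 cell cycle genes 11 rose and 10 fell, with a median of -0.35, which became 0.29 with a count minimum of 50 and 0.03 without mouse 552, where 11 rose and 10 fell. Ccnd1, cyclin D1, fell from a median of 200 to 35.4 CPM, whereas Cdk6 rose from 47.0 to 104 CPM and Mcm2, of the replication helicase, from 5.45 to 23.4 CPM. Of 19 clock genes 10 fell and 3 rose (Per1, Cry1 and Nfil3, or 5 with the mouse as a block), with a median of -1.03. Nr1d1, a clock repressor, fell from a median of 150 to 11.4 CPM, Hlf from 56.4 to 4.18 CPM and Tef from 110 to 37.6 CPM with overlap, and Bhlhe40 was not called. Of 24 genes of the growth hormone and IGF axis 15 fell and 4 rose (Jak2, Socs1, Socs3 and Igf2r), with a median of -1.09. Ghr, the growth hormone receptor, was 394 to 598 CPM in L and 39.3 to 54.8 CPM in PH, and Igf1 had medians of 685 and 94.7 CPM. Of 22 genes that respond to glucocorticoids 10 rose and 7 fell, with a median of 0.47. In the suspension, before culture, the median change of these genes from liver was 0.44, and 6 of the 22 were called. The study describes a hepatocyte culture medium with serum, dexamethasone, which is a synthetic glucocorticoid, and insulin, and refers to a medium described before for these cells. The part of these agents in the glucocorticoid, gluconeogenic and growth hormone lists was not tested. The time of day at which these samples were taken is not given in the sources used here.

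**Figure D4:**
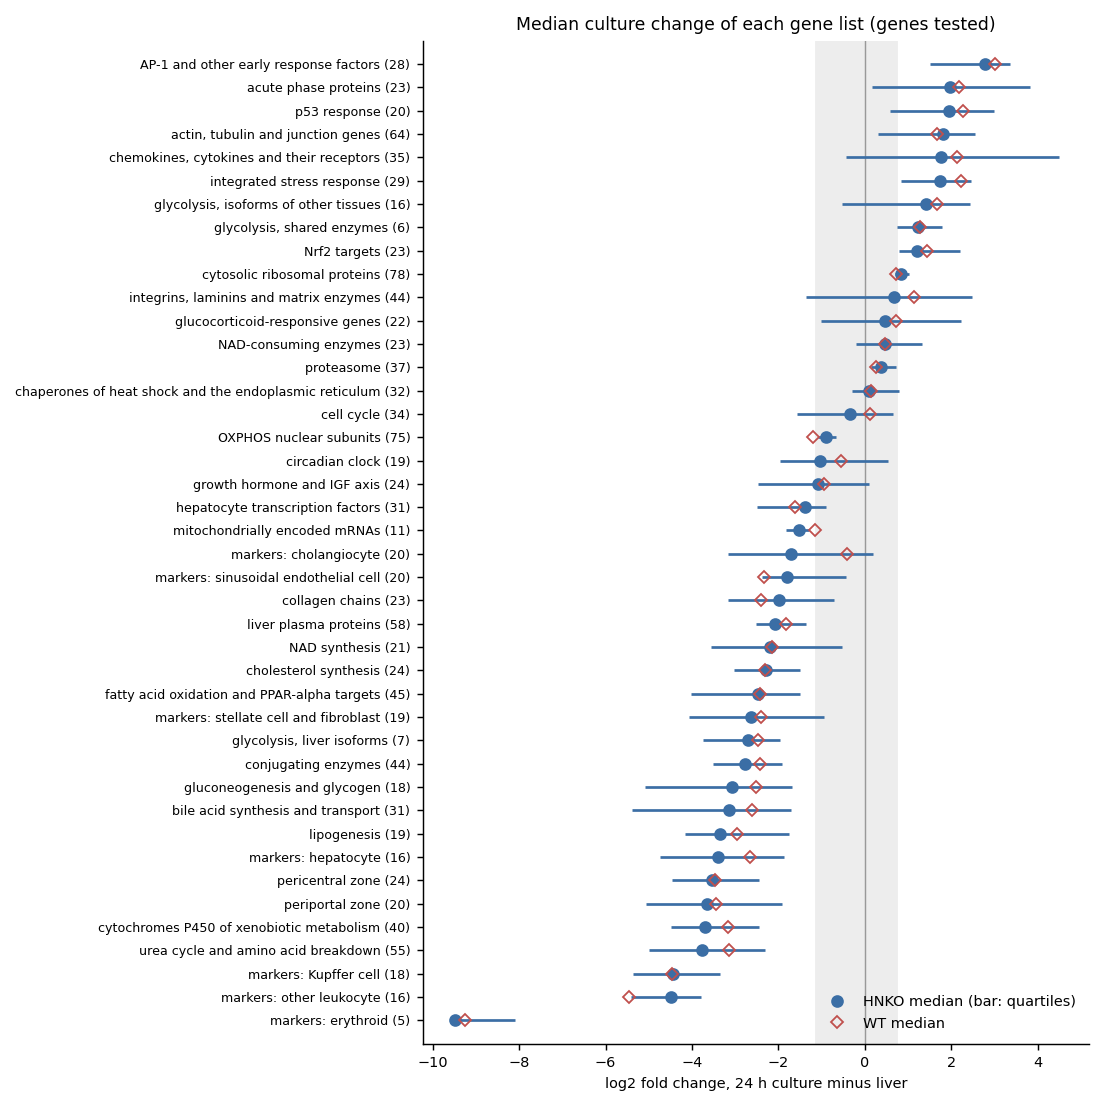
Median log2 fold change of culture over liver for 42 gene lists, with the number of genes tested in parentheses. Filled circles are HNKO medians with a bar from the lower to the upper quartile, open diamonds are WT medians, and the grey band spans the quartiles of all 14932 tested genes. Early response genes lie highest (2.78) and erythroid markers lowest (-9.49).

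Most markers of other liver cells were lower in PH than in L, in part already in the suspension. Median summed levels in L and CS were 50.9 and 16.0 CPM for other leukocytes and 755 and 441 CPM for stellate cells and fibroblasts. For bile duct cells they were 547 and 314 CPM, for Kupffer cells 1190 and 925 CPM and for erythroid cells 84.5 and 10.2 CPM. The sum of endothelial markers was higher in CS. All 16 hepatocyte markers fell, with a median of -3.40. Their summed level was 35100 to 51400 CPM in PH, against 115000 to 192000 CPM in L. Alb, at 27730 to 42110 CPM in PH, held most of that sum. The mean log2 CPM of these markers had medians of 11.48 in L and 7.65 in PH. All 5 erythroid markers fell, and Hba-a2 and Hbb-bt had no count in any culture. Hbb-bt was at least 310-fold lower in PH, with 3 counts over the group as the floor. Of 18 Kupffer cell markers, 16 fell, with a median of -4.45 (-4.94 without mouse 552) and a summed level of 1030 to 1370 CPM in L and 332 to 812 CPM in PH. Cd5l and Clec4f, which mark resident Kupffer cells, had medians of 140 and 110 CPM in L and 0.343 and 0.984 CPM in PH. The 2 Kupffer cell markers that rose, Mpeg1 and Cd68, are shared with other macrophages and held most of the summed level in culture, with means of 318 and 184 CPM. Of 16 tested markers of other leukocytes 14 fell, with a summed level of 40.6 to 99.99 CPM in L and 1.47 to 11.2 CPM in PH, and Siglech, of plasmacytoid dendritic cells, was among those at 0 in all cultures. In bulk RNA, fewer cells of a type and less of these transcripts per cell cannot be told apart.

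Of 20 markers of sinusoidal endothelium, 14 fell and none rose (1 was called higher with the mouse as a block or without mouse 540, 2 without mouse 566 and 3 with library size alone), with a summed level of 579 to 748 CPM in L and 186 to 362 CPM in PH. Ptprb fell from a median of 74.6 to 4.94 CPM and Fcgr2b from 57.8 to 8.23 CPM, whereas Pecam1, Cdh5, Lyve1, Stab1, Flt4 and Rspo3 were not called. In the suspension the same list had a summed level of 936 to 2200 CPM. Of 19 markers of stellate cells and fibroblasts 14 fell and Nes rose, with a summed level of 717 to 828 CPM in L and 195 to 539 CPM in PH, and Thy1 was at 0 in all cultures. Reln fell from 109 to 9.73 CPM at the median. Dcn and Rgs5 overlapped between the groups, and their calls (-1.01 and -0.91) were lost without mouse 540, 546, 562 or 566, at adjusted p-values of 0.060 to 0.092, and with library size alone. Ecm1 was not called. Of 20 markers of bile duct cells, 12 fell and 4 rose (Sox9, Tm4sf4, Cldn4 and Slc4a2). Their summed level was 289 to 1800 CPM in L (median 547, highest in mouse 552) and 813 to 1170 CPM in PH (median 936). At the median this sum was thus higher in culture, where Tm4sf4 held a large part of it. Tm4sf4 rose from a median of 146 to 589 CPM, while Spp1 was not called.

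Much the same genes differed between PH and L of WT mice. In WT mice 11299 genes (75.7%) were called between PH and L, from 6 cultures and 5 livers that share no animal with the HNKO libraries. Across the 6622 genes changed 2-fold or more in HNKO, 99.0% had the same sign in WT and 93.1% were called in the same direction. The log2 fold changes of the genotypes had a Pearson correlation of 0.95 across the 14932 genes, which are not independent of each other and were scaled in 1 fit. The test of the difference in culture change between genotypes called 236 genes (1.58%), 91 (0.609%) with a higher and 145 (0.971%) with a lower culture change in HNKO. This count rested on single mice: it was 1005 without WT mouse 544 and 8 without WT mouse 554, and 35 without HNKO mouse 552. With the mouse as a block, 180 genes were higher and 198 lower, with library size alone 43 and 300, and with DESeq2 224 and 436.

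Among genes whose culture change was lower in HNKO, G6pc fell by 9.16 in HNKO and by 5.00 in WT, a difference of -4.16 (SE 0.94, adjusted p = 0.025) that kept its call under 14 of 21 other settings. In WT PH it was 0.875 to 34.1 CPM, with a median of 3.06, and the highest value was that of mouse 556. Without that mouse the difference was -2.71 and not called (adjusted p = 0.096). Slc2a2, the glucose carrier, fell by 6.81 in HNKO and by 4.96 in WT (adjusted p of the difference 0.029), and Ugp2, of glycogen synthesis, was the other gene of that list called. F2rl1, the protease-activated receptor 2, was 1.51 to 8.05 CPM in HNKO PH and rose by a log2 fold change of 2.11, against 7.07 in WT, and the difference of -4.96 kept its call under 18 of 21 settings. Its median was 0.772 CPM in HNKO liver and 0 in WT liver, so the fold in WT rests on few liver counts. Gpnmb, a membrane glycoprotein of macrophages, and Ubd, a ubiquitin-like protein, rose by 2.56 and 2.24 in HNKO and by 6.63 and 6.64 in WT, and their calls held under 15 and 11 settings. The call of Ubd was lost with the mouse as a block (-4.06). In culture Ubd had medians of 17.6 CPM in HNKO and 12.2 CPM in WT, and in liver 1.36 and 0.0854 CPM. Gpnmb had medians of 19.5 and 44.8 CPM in culture and 3.66 and 0.427 CPM in liver. Cib3 fell by 4.16 in HNKO and was not called in WT (-0.22), and its difference held under 11 settings. Its liver medians were 14.9 CPM in HNKO and 1.28 CPM in WT, and its culture medians 1.14 and 0.955 CPM. The same test called Cyp3a11, Csrp3 and Tgm2, whose changes were -4.09, -8.17 and 2.23 in HNKO and -2.50, -4.95 and 3.42 in WT. Whether the differences of these genes, Slc2a2 and Ugp2 keep their calls under other settings was not tested.

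Among genes whose culture change was higher in HNKO, Il34, a ligand of the macrophage growth factor receptor, had a log2 fold change of 1.92 in HNKO and -0.41 in WT, and the difference held under 12 of 21 settings. Gstt3, a glutathione transferase, fell by 2.37 in HNKO and by 4.03 in WT, and its difference of 1.67 (adjusted p = 0.017) held under 20 settings. Tinagl1, a matrix protein, had changes of 1.16 and -0.48 and held under 14 settings, and Tmem25 had changes of -5.01 and -6.56 and held under 13. Ctsc, a lysosomal protease, was not called in HNKO (0.29, adjusted p = 0.38), with a culture of mouse 552 at 411 CPM and a median of 120 CPM. Its difference from WT was called at an adjusted p = 0.049 and held under 9 of 21 settings. This test called 1.58% of all tested genes, a share at which lists of this size hold few or no calls. No member of the ribosomal, proteasome, urea cycle or plasma protein lists was called in it. Of the gluconeogenesis genes 3 of 18 were, all lower in HNKO. Other lists with calls included the P450 genes (2 lower), the nuclear respiratory chain subunits (2 higher) and the p53 response (1 higher and 2 lower).

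**Figure D5:**
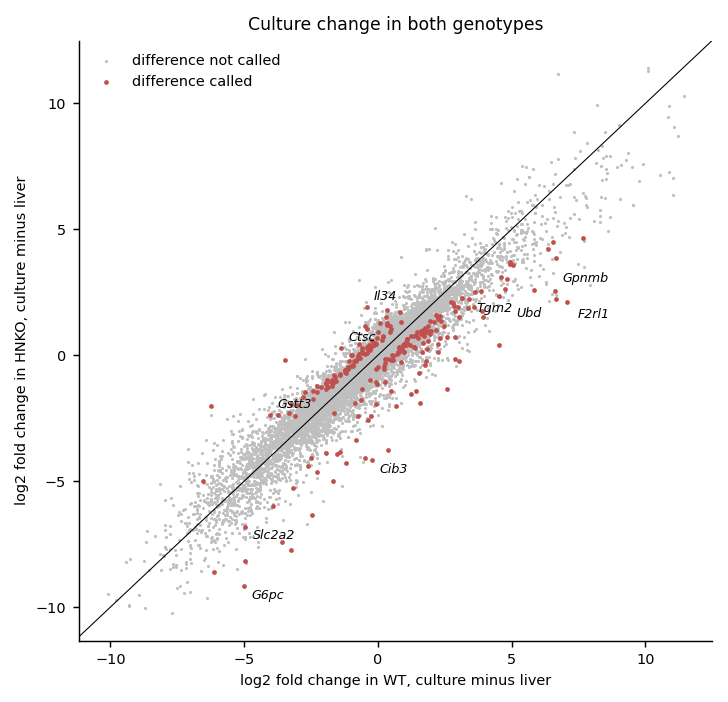
Log2 fold change of culture over liver in WT (horizontal) and HNKO (vertical) for 14932 genes, 1 point per gene, with the line of equal change. The 236 genes called in the test of the difference are red, and G6pc lies at -5.00 in WT and -9.16 in HNKO.

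Promoter sequence was read for the genes that moved most, from RefSeq promoters of GRCm38.p6 that span 250 bases before to 50 bases after each start site. A promoter was listed for 10800 of the tested genes with a symbol. The AP-1 motif TGANTCA, searched on both strands, was present in 16.6% of the 622 promoters of genes called 4-fold or more higher, in 8.38% of the 1658 of genes called 4-fold or more lower and in 6.88% of all 10800. The motif GTTAAT was present in 4.98%, 10.2% and 5.95% in the same order. The TATAAA box was present in 87 of the 622, 247 of the 1658 and 1052 of the 10800 promoters, the cyclic AMP response element TGACGTCA, which the AP-1 motif does not cover, in 3.22%, 1.75% and 3.41%, and the CArG box of SRF in 2.89%, 1.45% and 1.56%. Several start sites of a gene counted as 1 promoter set, and a match describes letters and not binding.

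The 150 bases before the start site are shown for 4 genes of the hepatocyte program that fell and hold GTTAAT, and for Mt2, which rose and holds the AP-1 motif. Capitals mark the motif GTTAAT (read as its complement ATTAAC where it lies on the other strand), the TATA box in Fabp1 and the AP-1 motif in Mt2.
Alb (chr5:90460720-90460869, plus strand, motif at -32): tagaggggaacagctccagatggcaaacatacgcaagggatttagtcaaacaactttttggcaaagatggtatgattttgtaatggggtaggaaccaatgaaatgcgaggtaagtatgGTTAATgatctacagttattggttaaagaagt
Fabp1 (chr6:71199729-71199878, plus strand, motif at -107): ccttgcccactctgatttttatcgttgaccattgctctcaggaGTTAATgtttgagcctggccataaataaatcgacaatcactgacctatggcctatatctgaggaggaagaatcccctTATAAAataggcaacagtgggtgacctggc
Slco1b2 (chr6:141629368-141629517, plus strand, motif at -66): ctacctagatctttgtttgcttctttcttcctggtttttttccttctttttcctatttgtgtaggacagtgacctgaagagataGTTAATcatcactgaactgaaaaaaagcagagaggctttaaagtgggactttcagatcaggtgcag
Haao (chr17:83846791-83846940, minus strand, motif at -41): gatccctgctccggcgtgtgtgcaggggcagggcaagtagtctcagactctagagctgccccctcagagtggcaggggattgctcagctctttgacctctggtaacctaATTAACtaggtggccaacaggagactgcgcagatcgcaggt
Mt2 (chr8:94172468-94172617, plus strand, AP-1 motif at -79): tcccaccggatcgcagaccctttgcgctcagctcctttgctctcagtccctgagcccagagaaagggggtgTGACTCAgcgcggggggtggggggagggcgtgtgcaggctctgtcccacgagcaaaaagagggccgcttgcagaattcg
These 5 promoters were chosen for their motif, so they carry no weight for a link between motif and change. Of the 185 named genes 139 had a promoter listed, and of the 13 that held the AP-1 motif 4 were called higher and 8 lower, among the latter Igf1, Ghr and Nr1i3. Of the 15 named genes with GTTAAT 12 were called lower and 2 higher (Tm4sf4 and Txnrd1).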

How the data were processed

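Total RNA (500 ng) was made into stranded libraries after ribosomal RNA removal. The deposited values are counts, which the authors made with STAR on GRCm38 and featureCounts 1.6.4 (STAR 2.7.2b is in the submitters' processing notes, and the study's methods give an earlier version for these libraries), counting fragments with both ends aligned, and the strand setting is not given in the sources used here. Counts of 36 libraries came in 1 table of 54232 genes. WT liver 558 (2547422 counts, mean rank correlation with libraries of its own type 0.7808, against 0.9414 to 0.9829 for the others) was left out, so 35 entered the fit. Genes with low counts were removed with filterByExpr (minimum count 10), and the 39300 genes removed held 0.0859% of counts. Symbols came from GENCODE M21, and 153 genes had none (0.0195% of counts).

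edgeR 4.0.16 in R 4.3.3 fitted 1 model over the 6 groups of genotype and state (TMM, quasi-likelihood F-test, Benjamini-Hochberg adjustment over 14932 genes). SEs were derived as |log2 fold change| / √F. log2 CPM used a prior count of 2. The fit was tested on simulated data. Same-numbered libraries come from the same animal, so the numbers pair them. Deviations from the group means correlated only weakly between L and PH of a mouse, at 0.0127 to 0.167. The livers of mice 540 and 542 matched best with the cultures of mice 552 and 546. For mouse 542 the same-mouse value (0.0247) was below the median with other mice (0.0585). The model has no block, as in the study. Exact two-sided permutation tests were used for Nampt alone. Promoter letters were searched in RefSeq sequences of GRCm38.p6.

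Lists and members were chosen with earlier results of these data known. Named by rule were Nampt, the 15 largest rises and falls at 10 CPM or more in the higher group (predicted genes and pseudogenes left out), up to 4 genes of each of 35 lists (the smallest p-values and the highest means), the 4 most abundant liver genes of each of 7 marker lists, and the 5 largest differences between genotypes in each direction at 5 CPM or more. Lists are described by counts and medians with no set test. Alternatives were RLE, upper quartile or no scaling, DESeq2 1.42.0, no filter, a minimum count of 50, edgeR's newer setting (legacy = FALSE), all 36 libraries, only the 12 HNKO libraries, a mouse block, and leaving out each mouse. Some genes picked by this rule or listed among exceptions are not reported here.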

Additional observations from a re-analysis of the deposited data

Results flagged for a closer look

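In groups of 6 libraries, a value was listed where its gap to the nearest library took a share of the whole range above Dixon's critical value. Of 454 groups tested 32 passed, where chance gives about 1 in 20, or 23, and 20 of the 32 were libraries of mouse 552. The groups share libraries and in part genes, so they are not independent and 23 is only a rough guide. The gaps of Gml and Psg22 in liver rest on 1 and 2 counts.

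The liver of mouse 552 had the lowest value in the following cases: the gap was 0.732 for Nlrp6 (81.4 CPM against 152 to 190 in the other 5), 0.638 for Gstz1, 0.668 for Gcgr (133 against 223 to 287), 0.767 for Bdh1, 0.694 for Hadh, 0.695 for Ndufb11, 0.731 for Col18a1, 0.684 for Igfbp4, 0.666 for Rplp0, 0.718 for Ecm1 and 0.631 for the mean log2 CPM of the urea cycle list (7.59 against 8.26 to 8.65). The same liver was high in Fosl2 (0.686), Col14a1 (0.645), Mpeg1 (0.689, 188 CPM against 89.5 to 113), Ptprc (0.73, 37.9 against 16.8 to 20.9), Psg22 (1.0, the only liver with counts) and the cell cycle list (0.781). In culture, mouse 552 was low in Pgk1 (0.631, 149 CPM against 269 to 379) and high in Klf6 (0.713, 645 against 401 to 460) and Col4a1 (0.766).

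Other livers that stood apart were mouse 540 for Scd1 (0.722, 1440 CPM against 9190 to 18700) and the growth hormone and IGF list (0.628), mouse 542 for Cyp3a11 (0.691), mouse 546 for Gpnmb (0.633), and mouse 566 for Aldoa (0.686) and Gml (1.0, the only liver with a count). Other cultures were mouse 540 for Esr1 (0.693) and Aen (0.71), mouse 542 for Txnrd1 (0.72), mouse 562 for Rplp0 (0.665) and Alas2 (0.7), and mouse 566 for Cib3 (0.638).

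The change with culture differed between genotypes, by edgeR's test of the difference, for 14 named genes. HNKO minus WT was -4.96 for F2rl1, -4.40 for Ubd, -4.16 for G6pc, -4.06 for Gpnmb, -3.94 for Cib3, -3.22 for Csrp3, -1.85 for Slc2a2, -1.59 for Cyp3a11 and -1.19 for Tgm2. It was 2.33 for Il34, 1.67 for Gstt3, 1.66 for Ctsc, 1.64 for Tinagl1 and 1.54 for Tmem25.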

How the results depend on the processing

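The count of called genes was 9299 with a minimum count of 50 and 13321 with no filter, and 10833 to 11200 leaving out a mouse, against 11374. With library size alone 11992 genes were called, 9794 of them shared, and 4647 rather than 2653 rose 2-fold or more. Under that scaling Ftl1 (0.15), Ei24 (0.28) and Ecm1 (0.45) turned upward. Leaving out a mouse gave -0.0044 to 0.27 for Bhlhe40, -0.31 to 0.12 for Ecm1 and -0.30 to 0.60 for Ctsc, none of them called in the full set.

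Genes whose culture change was higher or lower in HNKO than in WT (91 and 145) numbered 43 and 300 with library size alone, 224 and 436 with DESeq2, 20 and 89 with no filter, 140 and 226 with a minimum of 50 and 24 and 58 with all 36 libraries. Leaving out a mouse gave 2 to 488 and 6 to 517. With the mouse as a replicate block 180 were higher, and 11628 genes were called between PH and L, 11281 of them shared. The block also called Ftl1 and Ei24 lower, ended the call of Ubd and moved counts within 5 lists by over 1.5 times (genes called higher among pericentral, clock and sinusoidal markers, and lower among Nrf2 and p53 genes). It changed no other call of a named gene, but the differences between genotypes of Slc2a2, Cyp3a11, Csrp3 and Tgm2 were not followed under other settings. The causes were not tested. Genes under about 1 CPM in a state rest on few counts, which limits their folds.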
